A study of Mus musculus with 10 samples.

Results

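Notch receptors, ligands and targets were followed in 4 sorted fractions of mouse intestinal epithelial cells. The 9 genes were the receptors Notch1 and Notch2, the ligands Dll1, Dll4 and Jag1, the receptor-modifying enzyme gene Lfng, the DNA-binding partner Rbpj, and the target genes Hes1 and Olfm4. A gene was taken when a probe set of the deposited value table carried its symbol alone in the platform's gene table, and 1 probe set was used per gene, that with the highest mean over the 10 arrays. All 9 were measured, among 18820 genes treated in the same way. Rbpj alone had a further probe set, whose mean of 2.58 over the arrays lay below the 6.87 of the one used.

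Notch is a receptor on the cell surface that is activated by Delta-like and Jagged ligands on a neighbouring cell. Binding leads to cleavage of the receptor, first outside the membrane and then within it by gamma-secretase, and the freed intracellular part enters the nucleus, where it joins Rbpj and Mastermind co-activators on target genes. In the intestinal crypt, Notch1 and Notch2 act in stem cells and absorptive progenitors, and the ligands Dll1 and Dll4 are carried by secretory cells such as Paneth cells and by secretory progenitors. The target Hes1 encodes a repressor of Atoh1, the transcription factor that starts the secretory fate, so a cell that receives the signal stays out of that fate and a cell that escapes it turns on Atoh1 and the ligands.

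The cells carried an Lgr5-EGFP-ires-CreERT2 allele, in which green fluorescent protein follows the promoter of the stem cell gene Lgr5, and a Ki67-TagRFP allele, in which a red fluorescent protein is attached to the endogenous Ki67 protein of cycling cells. Sorting on both colours gave 4 fractions. Both Lgr5-high fractions, of high and of low Ki67, had 2 arrays, and of the Lgr5-medium fractions that of high Ki67 had 4 and that of low Ki67 had 2. Their total RNA was measured on Mouse Gene ST 1.1 arrays (Affymetrix), 1 sample per array. All groups carried both reporters and none had a further treatment in the labels, which give neither the age of the animals nor whether replicates are separate animals. The p-values therefore reflect only the variation among these samples, and that may be technical. Values are on a log2 scale, where a difference of 1 is a 2-fold difference, and levels are compared within a gene only.

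Lgr5 followed the sort, at a mean of 9.38 and 10.22 in the Lgr5-high fractions (Ki67 high and low) and 7.39 and 8.58 in the Lgr5-medium ones. Within the Lgr5-medium cells it was higher at Ki67 low by 1.20 ± 0.14 (SE; limma adjusted p = 0.000986). Mki67 differed between the Ki67 fractions by -0.11 among Lgr5-high and -0.29 among Lgr5-medium cells, and neither difference passed the test (limma adjusted p = 0.9998 and 0.249). Arrays of 1 group correlated at a mean of 0.992 to 0.998 over the genes, the lowest value being that of Lgr5-medium Ki67-high replicate 4, and no 2 arrays held identical values. The medians of the genes tested were 5.13 and 5.12 on the Lgr5-medium Ki67-low arrays and between 4.97 and 5.03 on the Lgr5-medium Ki67-high arrays, while the median over the genes of the difference between these groups was -0.019.

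Of the 9 genes, 4 passed the test (limma, Benjamini-Hochberg adjusted p under 0.05 over all genes) in at least 1 comparison. Of all genes, 3.58% passed between the Ki67 fractions of Lgr5-medium cells and 2.84% between the Lgr5 levels at low Ki67. The share of all genes that passed in at least 1 comparison was not computed. The ligand genes Dll4 and Dll1 and the enzyme gene Lfng rose from Ki67-high to Ki67-low cells at the medium Lgr5 level, and Notch1 was higher in Lgr5-high than in Lgr5-medium cells at low Ki67. Their promoters are shown here because these are the genes whose levels the comparisons turn on. Each line gives the 250 bases before the annotated start, 5′ to 3′ on the strand of the gene, from RefSeq on GRCm38.p6. Capitals mark matches to TGGGAA, the core of the sequence that RBPJ binds (TTCCCA where it lies on the other strand), or to CAGCTG, an E-box of the kind that basic helix-loop-helix factors such as ATOH1 bind, which reads the same on both strands.
Dll1 (chr17:15376933-15377182, minus strand): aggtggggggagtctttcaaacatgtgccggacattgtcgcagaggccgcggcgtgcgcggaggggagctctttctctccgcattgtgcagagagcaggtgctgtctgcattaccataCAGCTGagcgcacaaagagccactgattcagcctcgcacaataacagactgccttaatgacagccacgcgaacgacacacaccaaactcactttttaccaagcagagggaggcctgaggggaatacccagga
Dll4 (chr2:119325534-119325783, plus strand): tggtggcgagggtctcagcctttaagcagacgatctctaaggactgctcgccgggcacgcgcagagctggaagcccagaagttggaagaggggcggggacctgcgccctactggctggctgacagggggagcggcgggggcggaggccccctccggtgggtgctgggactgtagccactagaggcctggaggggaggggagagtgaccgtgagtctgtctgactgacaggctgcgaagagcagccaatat
Lfng (chr5:140607091-140607340, plus strand): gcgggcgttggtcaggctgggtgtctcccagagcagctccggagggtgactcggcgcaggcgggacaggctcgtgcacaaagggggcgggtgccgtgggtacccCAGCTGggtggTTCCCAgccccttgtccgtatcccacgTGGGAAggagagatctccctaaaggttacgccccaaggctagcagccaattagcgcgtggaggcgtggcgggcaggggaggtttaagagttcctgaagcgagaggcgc
Notch1 (chr2:26503823-26504072, minus strand): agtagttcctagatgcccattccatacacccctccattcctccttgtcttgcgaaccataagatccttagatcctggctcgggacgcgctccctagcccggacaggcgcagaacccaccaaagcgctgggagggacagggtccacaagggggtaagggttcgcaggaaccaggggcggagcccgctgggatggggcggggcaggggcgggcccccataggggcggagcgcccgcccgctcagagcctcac

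Counting back from -1, the last base before the start, Lfng held CAGCTG at -146 to -141 and TGGGAA at -135 to -130 on the other strand and at -108 to -103 on its own. Dll1 held CAGCTG at -132 to -127 in the promoter shown and neither motif before its other annotated start, while Dll4 and Notch1 held neither. Among the remaining genes, Olfm4 had TGGGAA at -12 to -7, Jag1 had CAGCTG at -82 to -77, Rbpj had TGGGAA at -149 to -144 and, on the other strand, at -65 to -60, and Notch2 had neither. The table used held promoters of 8 of the 9 genes, all but Hes1. For scale, 21.6% of all 32851 promoters of this length held TGGGAA, 2.77% held it at least 2 times, and 13.0% held CAGCTG. These promoters also differed in CpG dinucleotides: Olfm4 had 4, below the median of 6 over all promoters, and the promoters of the other 7 genes had between 13 (Dll1, the one shown) and 34 (Notch2). A match of letters is a description of the window and does not show binding.

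The counts of genes past the test differed widely between comparisons, and so did the share of all genes. Between the Ki67 fractions of Lgr5-high cells none of the 9 passed, where 0.00531% of the genes did. At the medium Lgr5 level 3 rose with low Ki67 and none fell, where 3.58% of the genes passed in either direction. Between Lgr5-high and Lgr5-medium cells none passed at high Ki67 (0.935% of the genes) and 1 passed at low Ki67, upward in Lgr5-high cells (2.84% of the genes). In the interaction, the Ki67 difference at high Lgr5 minus that at medium Lgr5, none of the 9 passed (1.04% of the genes). Without adjustment, limma gave p under 0.05 for 1, 5, 3, 5 and 3 of the 9 in these comparisons, in the same order. Of all 18820 genes, 853, 2953, 2857, 2742 and 1520 had an unadjusted limma p under 0.05. The median difference over the 9 was 0.072, 0.22, 0.22, 0.18 and 0.017, beside -0.0064, -0.019, 0.012, 0.030 and 0.023 over all genes. These comparisons share arrays, so the same values enter more than 1 of them. None of the 4 calls held when only the groups compared were fitted (adjusted p from 0.0822 to 0.15) or with every probe set of the table in the test (0.0897 to 0.128).

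**Figure D1:**
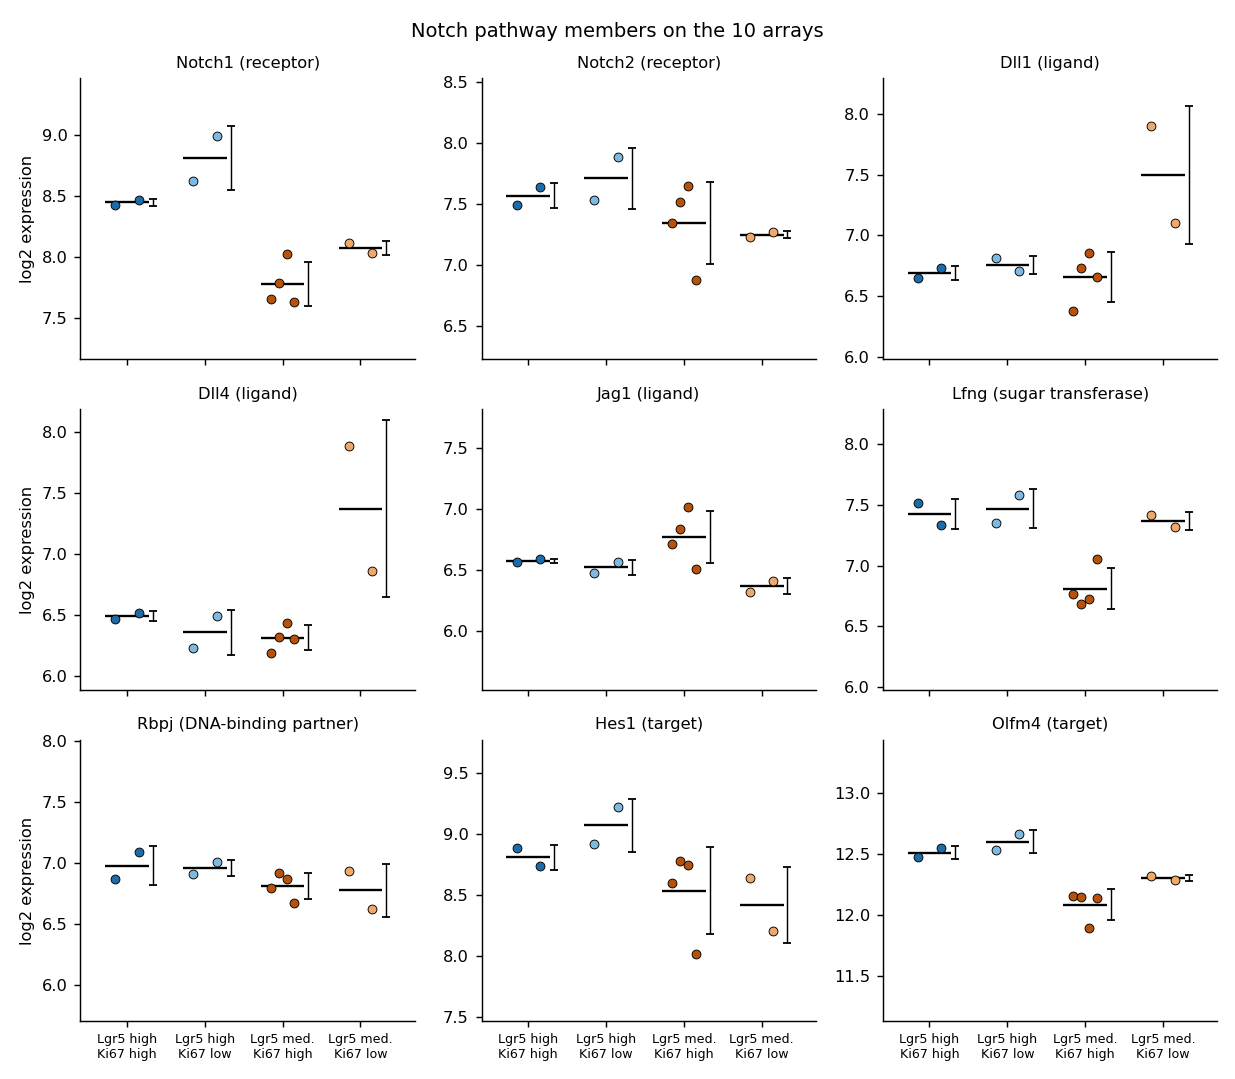
Log2 expression of the 9 genes on the 10 arrays, 1 panel per gene, with a point for each array, a line at the group mean and a bar of 1 SD beside it; every panel spans the same number of log2 units. Dll1 and Dll4 stand out only in Lgr5-medium Ki67-low cells, whose 2 arrays lie apart from each other, while the Notch1 arrays of the Lgr5-high groups lie above those of the Lgr5-medium groups.

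Notch1, the main receptor of the crypt, was higher in the Lgr5-high fractions. Its log2 expression was 8.43 and 8.47 in Lgr5-high Ki67-high cells and 8.62 and 8.997 in Lgr5-high Ki67-low cells. The Lgr5-medium arrays read 7.66, 7.79, 8.03 and 7.63 at high Ki67 and 8.11 and 8.03 at low Ki67. All 4 Lgr5-high arrays thus lay above all 6 Lgr5-medium arrays, and the groups ordered as Lgr5-high Ki67-low, Lgr5-high Ki67-high, Lgr5-medium Ki67-low and Lgr5-medium Ki67-high with no overlap between neighbours, although the last step was the narrow one from 8.031 to 8.026. At low Ki67 the receptor gene was higher in Lgr5-high cells by 0.74 ± 0.15 (SE), or 1.67-fold, which passed the test (limma adjusted p = 0.0324). At high Ki67 the difference was of similar size, 0.67 ± 0.13, and lay at the edge of the threshold without passing it (adjusted p = 0.0501). The interaction was 0.066 with a 95% interval from -0.39 to 0.52. The Ki67 differences of Notch1, 0.36 ± 0.15 at high and 0.30 ± 0.13 at medium Lgr5, did not pass (adjusted p = 0.9998 and 0.320).

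The Notch1 call at low Ki67 was lost without Lgr5-high Ki67-low replicate 2, the array that read 8.997 (0.55, limma adjusted p = 0.266), and without either Lgr5-medium Ki67-low array (adjusted p = 0.127 and 0.156), either Lgr5-high Ki67-high array (0.0656 each) or Lgr5-medium Ki67-high replicate 2 (0.0592). At high Ki67 the difference passed once the dimmest 30% of genes were left out (adjusted p = 0.0477), after quantile normalization (0.0392) or with array weights (0.0112).

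Notch2, the other receptor of the epithelium, had no difference past the test. It read 7.50 and 7.64 in Lgr5-high Ki67-high cells, 7.54 and 7.89 in Lgr5-high Ki67-low cells, 7.34, 7.52, 7.65 and 6.88 in Lgr5-medium Ki67-high cells, and 7.23 and 7.27 in Lgr5-medium Ki67-low cells. Neighbouring groups overlapped at every step of their order, while the Lgr5-high arrays at low Ki67 lay above the Lgr5-medium arrays at low Ki67. The difference furthest from 0 was 0.46 ± 0.22 between Lgr5-high and Lgr5-medium cells at low Ki67, and it did not pass (limma adjusted p = 0.378). That interval ran from -0.027 to 0.95, so a difference as large as that of Notch1 lay within it.

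Dll4, a Delta-like ligand of secretory cells, was highest in the Lgr5-medium Ki67-low cells. Its log2 expression there was 7.88 and 6.86, and the other 8 arrays lay between 6.19 and 6.52. They were 6.46 and 6.52 in Lgr5-high Ki67-high cells, 6.23 and 6.49 in Lgr5-high Ki67-low cells, and 6.19, 6.32, 6.44 and 6.30 in Lgr5-medium Ki67-high cells. Both Lgr5-medium Ki67-low arrays were above every other array, and they differed from each other by more than the other groups differed among themselves. From high to low Ki67 at medium Lgr5, Dll4 rose by 1.06 ± 0.22 (SE), or 2.08-fold (limma adjusted p = 0.0290). Against Lgr5-high cells at low Ki67 the difference was -1.01 ± 0.26 and missed the threshold (adjusted p = 0.0736). The interaction of -1.19 ± 0.34 did not pass (adjusted p = 0.242), so the Ki67 difference of Dll4 was not shown to differ between the Lgr5 levels.

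Dll1, the second Delta-like ligand of secretory cells, had the same order of arrays in that fraction. The Lgr5-medium Ki67-low arrays read 7.90 and 7.10. Lgr5-high cells read 6.65 and 6.73 at high Ki67 and 6.81 and 6.71 at low Ki67, and Lgr5-medium Ki67-high cells read 6.38, 6.74, 6.86 and 6.66. The first fraction did not overlap with any other, and the other 3 overlapped. Dll1 rose by 0.84 ± 0.20 (SE), or 1.79-fold, from high to low Ki67 at medium Lgr5 (limma adjusted p = 0.0483). Neither the difference of -0.74 ± 0.23 from Lgr5-high cells at low Ki67 nor the interaction of -0.77 ± 0.30 passed (adjusted p = 0.142 and 0.519). In these bulk samples more cells of a type and more RNA of the gene per cell cannot be told apart.

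The sizes of both ligand differences moved most with the Lgr5-medium Ki67-low arrays, and both calls were also lost without certain other arrays. Without Lgr5-medium Ki67-low replicate 1 the rise in Dll4 was 0.54 (limma adjusted p = 0.131) and that in Dll1 was 0.44 (adjusted p = 0.436), and without replicate 2 they were 1.57 (adjusted p = 0.000433) and 1.24 (adjusted p = 0.00336). The Dll1 call was lost with every other single array left out except that replicate 2 (adjusted p from 0.0542), and after centring of the arrays (0.71, adjusted p = 0.0627). The Dll4 call was lost without either Lgr5-high Ki67-high array (adjusted p = 0.0600 each) or with replicate 1 or 2 of Lgr5-medium Ki67-high cells removed (0.0645 and 0.0735), and it held after centring (0.93, adjusted p = 0.0361).

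Jag1, a Jagged-type ligand, did not share this pattern. It read 6.56 and 6.59 in Lgr5-high Ki67-high cells, 6.48 and 6.57 in Lgr5-high Ki67-low cells, 6.72, 6.84, 7.02 and 6.51 in Lgr5-medium Ki67-high cells, and 6.32 and 6.41 in Lgr5-medium Ki67-low cells. The fraction with the highest Dll1 and Dll4 thus had the lowest Jag1, without overlap with the other groups, which overlapped among themselves. The Ki67 difference at medium Lgr5 was -0.40 ± 0.12 (SE) and did not pass (limma adjusted p = 0.138), but it passed after centring of the arrays (-0.53, adjusted p = 0.0371), with array weights (adjusted p = 0.0310) and once replicate 4 of Lgr5-medium Ki67-high cells was left out (-0.49, adjusted p = 0.0235).

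Lfng encodes Lunatic fringe, a sugar transferase that modifies the Notch receptor and shifts its response from Jagged toward Delta-like ligands. It was lowest in the Lgr5-medium Ki67-high cells, at 6.77, 6.68, 6.72 and 7.06. The other arrays read 7.51 and 7.33 in Lgr5-high Ki67-high cells, 7.35 and 7.58 in Lgr5-high Ki67-low cells, and 7.42 and 7.32 in Lgr5-medium Ki67-low cells. Those 3 groups overlapped, and all 6 of their arrays lay above the 4 of Lgr5-medium Ki67-high cells. At medium Lgr5, Lfng rose by 0.56 ± 0.12 (SE), or 1.47-fold, from high to low Ki67 (limma adjusted p = 0.0339). At high Ki67 it was 0.61 ± 0.12 higher in Lgr5-high than in Lgr5-medium cells, at the edge of the threshold without passing it (adjusted p = 0.0502). The interaction of -0.52 ± 0.18 did not pass (adjusted p = 0.441).

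The rise in Lfng at medium Lgr5 varied from 0.51 to 0.64 with single arrays left out, and its call was lost without either Lgr5-medium Ki67-low array (limma adjusted p = 0.310 and 0.105), without either Lgr5-high Ki67-high array (0.0573 each), and with replicate 1, 2 or 3 of Lgr5-medium Ki67-high cells removed (0.0702, 0.0913 and 0.0761). Without replicate 4 of that group, the array that read 7.06, the adjusted p was 0.00554, and after centring of the arrays the difference was 0.43 (adjusted p = 0.0594).

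Rbpj, the DNA-binding protein that every Notch receptor acts through, was the steadiest of the 9, with an SD of 0.14 over the 10 arrays beside 0.50 for Dll4. It read 6.87 and 7.09 in Lgr5-high Ki67-high cells, 6.91 and 7.01 in Lgr5-high Ki67-low cells, 6.79, 6.91, 6.87 and 6.67 in Lgr5-medium Ki67-high cells, and 6.93 and 6.62 in Lgr5-medium Ki67-low cells. Every neighbouring pair of groups overlapped. The Rbpj difference furthest from 0 was 0.18 ± 0.13 (SE; limma adjusted p = 0.605), with an interval from -0.11 to 0.48, and none of its differences passed.

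Hes1, the repressor through which Notch holds back Atoh1, had its highest values in Lgr5-high Ki67-low cells, at 8.92 and 9.22. It read 8.88 and 8.73 in Lgr5-high Ki67-high cells, 8.59, 8.78, 8.75 and 8.01 in Lgr5-medium Ki67-high cells, and 8.64 and 8.20 in Lgr5-medium Ki67-low cells. The first group lay above all others without overlap. Lgr5-medium Ki67-high cells overlapped with both of the remaining groups, which did not overlap with each other. At low Ki67 Hes1 was 0.65 ± 0.25 (SE) higher in Lgr5-high than in Lgr5-medium cells, which did not pass (limma adjusted p = 0.240). Between the Ki67 fractions of Lgr5-medium cells, where Dll1 and Dll4 rose, the Hes1 difference was -0.11, with an interval from -0.59 to 0.36, and it lay at 0.11 without Lgr5-medium Ki67-low replicate 2.

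Olfm4, a secreted glycoprotein gene that marks crypt base stem cells and is a known Notch target, was higher in the Lgr5-high fractions on every array. It read 12.47 and 12.55 in Lgr5-high Ki67-high cells, 12.54 and 12.67 in Lgr5-high Ki67-low cells, 12.16, 12.15, 11.90 and 12.14 in Lgr5-medium Ki67-high cells, and 12.32 and 12.29 in Lgr5-medium Ki67-low cells. The Lgr5-high groups overlapped with each other, and both Lgr5-medium groups lay below them and apart from each other. The Lgr5 difference was 0.43 ± 0.096 (SE) at high Ki67 and 0.30 ± 0.11 at low Ki67, and neither passed (limma adjusted p = 0.0716 and 0.229). With array weights the first passed (adjusted p = 0.0180).

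Atoh1, which Hes1 represses and which is not among the 9, marked the Lgr5-medium Ki67-low fraction. It read 9.26 and 8.26 there, and between 6.71 and 7.21 on the other 8 arrays. The replicate with the higher Atoh1 was the one with the higher Dll1 and Dll4. With 2 arrays only 2 orders are possible, so a shared order does not show a link between genes, here or below. From high to low Ki67 at medium Lgr5, Atoh1 rose by 1.66 ± 0.22 (SE), or 3.17-fold (limma adjusted p = 0.00206), and it remained past the threshold with each single array left out (1.16 to 2.16). At low Ki67 it was lower in Lgr5-high than in Lgr5-medium cells (-1.95 ± 0.25, adjusted p = 0.00237), and its interaction passed (-2.02 ± 0.33, adjusted p = 0.0174). The interaction call was lost without any 1 of the 4 Lgr5-high arrays (adjusted p from 0.0641 to 0.119), with the replicate block (0.1000) and with every probe set of the table in the test (0.0795).

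**Figure D2:**
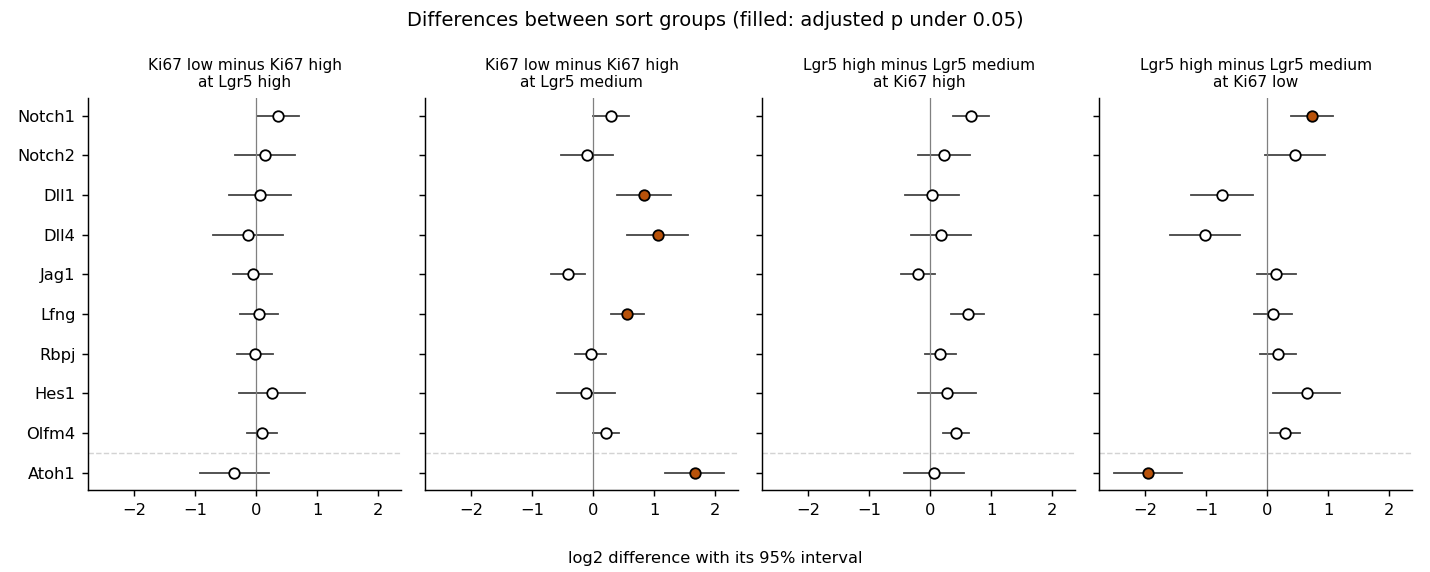
Log2 differences of the 9 genes and, below the dashed line, Atoh1 in the 4 comparisons of groups, with 95% intervals; filled points passed the limma test at an adjusted p under 0.05. Among the 9, filled points are Dll1 (0.84), Dll4 (1.06) and Lfng (0.56) between the Ki67 fractions at medium Lgr5, and Notch1 (0.74) between the Lgr5 levels at low Ki67.

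Markers of the secretory cell types rose in the same comparison as the 2 ligand genes, in lists that were chosen for the lineages of the epithelium. At medium Lgr5, 16 of 16 enteroendocrine, 9 of 10 tuft, 8 of 9 goblet and 5 of 9 Paneth markers passed upward. Every measured marker of these lists had a higher mean in the Ki67-low fraction, with median differences of 2.56, 2.93, 1.48 and 1.40. Of all genes, 3.58% passed in either direction. The mean level of the Paneth list was 10.28 and 9.46 in Lgr5-medium Ki67-low replicates 1 and 2, and that of the goblet list 11.11 and 10.73, so both were higher in the replicate with the higher Dll1 and Dll4. For the enteroendocrine list these means were 8.23 and 8.07, and the tuft list had the other order, 6.91 and 7.51. In Lgr5-medium Ki67-high cells the ranges were 8.48 to 9.19 for Paneth, 9.53 to 9.79 for goblet, 5.36 to 5.98 for enteroendocrine and 4.37 to 5.30 for tuft markers. The Paneth list lay between 9.35 and 9.54 in Lgr5-high Ki67-high cells. It thus overlapped with Lgr5-medium Ki67-low cells, which the other secretory lists did not. Of the 9 Paneth markers, 0 passed between the Lgr5 levels at low Ki67 (2.84% of all genes) or in the interaction (1.04%). The part of these cell types in the differences of Dll1, Dll4 and Lfng was not tested.

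Cells outside the epithelium that carry Notch ligands were looked for in the same way. Endothelial cells are a known source of Dll4 and Jag1, and the mean level of the 10 endothelial markers lay between 3.40 and 3.60 in every group. One of them, Esam, rose between the Ki67 fractions at medium Lgr5 (0.64 ± 0.14, limma adjusted p = 0.0339), and the median over the list was 0.0079. The median was 0.038 for 10 stromal markers, of which 8 lay above 0 and Vim alone passed (2.50 ± 0.17, limma adjusted p = 6.21e-05). For 9 immune markers the median was 0.63, and 8 lay above 0. Among these, Laptm5 passed upward (0.63), while Itgam passed downward (-0.62). None of 11 enterocyte markers passed (median 0.26), although all 11 lay above 0. Of all genes, 3.58% passed in this comparison.

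**Figure D3:**
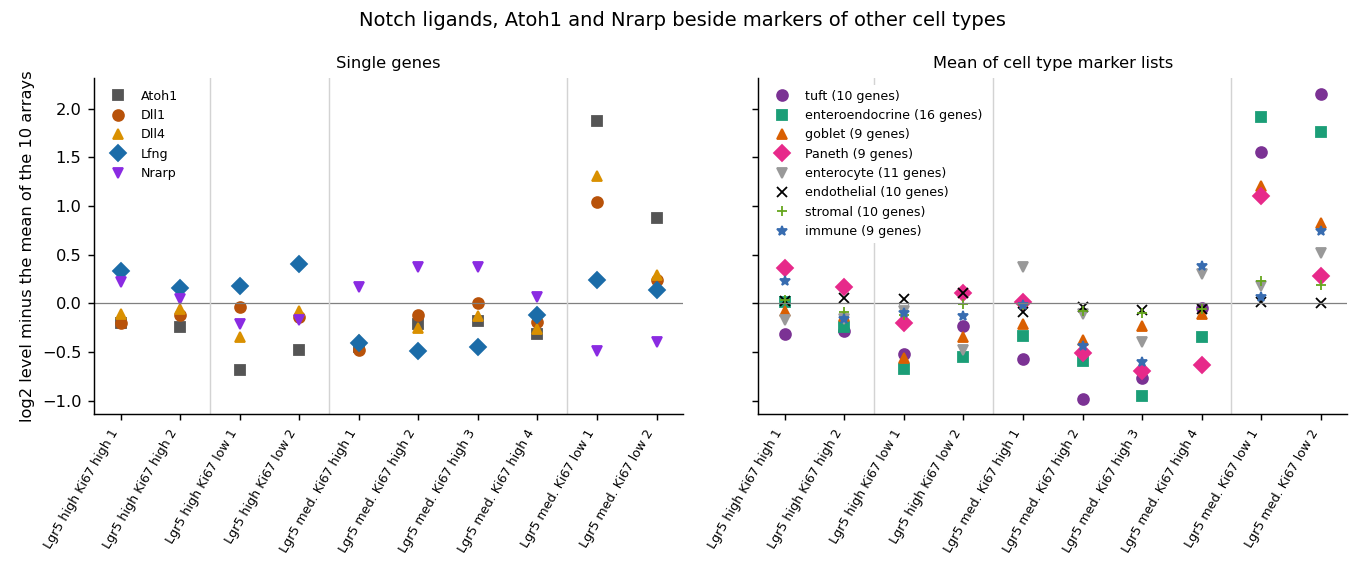
Left, log2 levels of Dll1, Dll4, Lfng, Atoh1 and Nrarp on each array, minus the mean of the gene over the 10 arrays; right, the mean of such values over each cell type marker list. On the 2 Lgr5-medium Ki67-low arrays the ligand genes, Atoh1 and the tuft, enteroendocrine and goblet lists are high and Nrarp is low. The Paneth list is high on replicate 1 (1.10), but on replicate 2 (0.28) it lies below Lgr5-high Ki67-high replicate 1 (0.37). The endothelial list stays near 0 on all arrays.

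The rest of the pathway was read from a list of 65 genes in 9 functional groups, of which 60 were measured. Between the Ki67 fractions of Lgr5-medium cells 3 passed upward with low Ki67 and 1 downward. In the Lgr5 comparison at low Ki67, 2 passed as higher in Lgr5-high cells and none as lower. Of all genes, 3.58% and 2.84% passed in these comparisons, so the count of 2 among 60 lay near the share over all genes. No gene of the list passed in the other comparisons. The smallest p there belonged to Nedd4 (0.29), Tle3 (0.41) and Nrarp (-0.32) for Ki67 at high Lgr5 (limma adjusted p = 0.9998 for each), to Nedd4 (0.36), Tle3 (0.50) and Dtx3 (0.49) for Lgr5 at high Ki67 (adjusted p = 0.0756, 0.0999 and 0.113), and to Dner (-0.65), Dll3 (-0.71) and Neurl1a (-0.37) for the interaction (adjusted p = 0.0942, 0.181 and 0.57). The list's median differences were -0.025 and 0.041 for Ki67 at high and medium Lgr5, 0.069 and 0.011 for Lgr5 at high and low Ki67, and -0.010 for the interaction, close to the medians of all genes.

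Nrarp, a feedback inhibitor that Notch itself turns on, was the pathway gene that passed downward. It read 6.41 and 6.50 in Lgr5-medium Ki67-low cells and 7.06, 7.27, 7.27 and 6.96 in Lgr5-medium Ki67-high cells. The Lgr5-high arrays read 7.12 and 6.94 at high Ki67 and 6.69 and 6.73 at low Ki67, so both Ki67-low groups lay below both Ki67-high groups. The difference at medium Lgr5 was -0.69 ± 0.11 (SE; limma adjusted p = 0.00592), and that at high Lgr5 was -0.32 and did not pass. Left-out arrays moved the first between -0.75 and -0.65, and it missed the threshold only without Lgr5-medium Ki67-low replicate 1 (adjusted p = 0.0907). Nrarp thus fell where Dll1 and Dll4 rose, while the target Hes1 showed no difference past the test in that comparison. Of the other Hes and Hey family genes on the list, Hes2, Hes3, Hes5, Hes6, Hes7, Hey1, Hey2 and Heyl, none passed in any comparison. Their Ki67 differences at medium Lgr5 lay between -0.14 (Heyl) and 0.30 (Hes6). As at most 3.58% of all genes passed in any comparison, no call among so few genes lies near that share.

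Dner, a Delta-like surface protein, rose by 0.57 ± 0.096 (SE) with low Ki67 at medium Lgr5 (limma adjusted p = 0.00937), from between 2.88 and 3.12 on the 4 Ki67-high arrays to 3.67 and 3.45. These are dim readings, and Dner is among the dimmest 30% of genes that 1 alternative left out. The call was lost without Lgr5-medium Ki67-low replicate 1 (0.46, adjusted p = 0.154). Dll3, a ligand-like relative of the Delta proteins, had a difference of 0.51 that just missed the threshold (adjusted p = 0.0536). Notch3, Notch4, Jag2, Dlk1 and Dlk2 did not pass in any comparison, and of all genes at most 3.58% did in any 1 of them.

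Tle3, a Groucho-type co-repressor that works with the Hes proteins, rose in the same comparison by 0.64 ± 0.13 (limma adjusted p = 0.0233), from between 6.52 and 6.92 to 7.44 and 7.37. Its other arrays read 7.27 and 7.26 in Lgr5-high Ki67-high cells and 7.50 and 7.86 in Lgr5-high Ki67-low cells, so Tle3, like Lfng, was lowest in the Lgr5-medium Ki67-high group. Neurl1a, a ubiquitin ligase that acts on Notch ligands, rose by 0.46 ± 0.10 (adjusted p = 0.0366), from between 3.38 and 3.69 to 4.08 and 3.96. Both calls were lost without either Lgr5-medium Ki67-low array (adjusted p = 0.231 and 0.0924 for Tle3, 0.347 and 0.0932 for Neurl1a), as well as with replicate 2 of Lgr5-medium Ki67-high cells removed (0.0577 and 0.0731). That of Neurl1a was also lost without any 1 of the Lgr5-high arrays and, at 0.33, after centring of the arrays (adjusted p = 0.0976).

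In the Lgr5 comparison at low Ki67, the 2 pathway genes that passed, a number near the background of 2.84%, were Dtx4 and Nedd4. Dtx4, of the Deltex family of ubiquitin ligases, was higher in Lgr5-high cells by 0.69 ± 0.14 (limma adjusted p = 0.0306), at 8.47 and 8.70 against 7.94 and 7.86. Nedd4, another ubiquitin ligase, was higher by 0.45 ± 0.094 (adjusted p = 0.0345), at 11.02 and 11.13 against 10.62 and 10.63. Neither group overlapped with the other, as for Notch1 itself. Without Lgr5-high Ki67-low replicate 2 neither passed (adjusted p = 0.257 for Dtx4 and 0.261 for Nedd4), nor without either Lgr5-medium Ki67-low array, Lgr5-high Ki67-low replicate 1 or either Lgr5-high Ki67-high array. Nedd4 also missed it without Lgr5-medium Ki67-high replicate 1 or 2 (0.0528 and 0.0629).

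No gene passed in any comparison among the measured sugar transferases other than Lfng (4 genes), the proteases that cut the receptor outside the membrane (3 genes), the gamma-secretase subunits (5 genes) or the co-activators (8 genes). At medium Lgr5 their median Ki67 differences were -0.11, -0.10, -0.054 and 0.16. The fringe relatives of Lfng differed in that comparison by 0.18 (Mfng) and -0.02 (Rfng). At most 3.58% of all genes passed in any comparison, so the absence of calls in groups this small lies near that share.

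**Figure D4:**
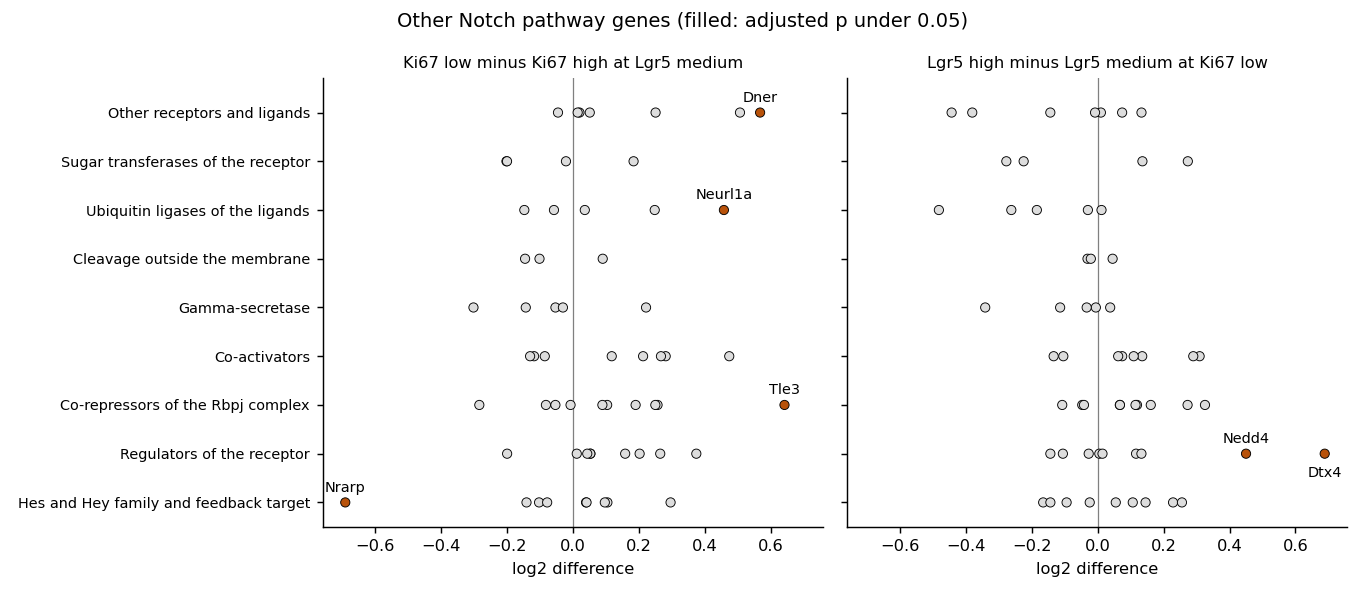
Log2 differences of the 60 other Notch pathway genes by functional group, between the Ki67 fractions at medium Lgr5 (left) and between the Lgr5 levels at low Ki67 (right); each point is 1 gene, and filled, named points passed the limma test at an adjusted p under 0.05. Nrarp (-0.69) lies to the left of all others in the first panel, and Dtx4 (0.69) to the right of all others in the second.

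Transcription factors of secretory commitment, among them Atoh1, which Hes1 represses, moved with the ligand genes. Of 11 such factors, 8 passed upward with low Ki67 at medium Lgr5 (median 1.38) and none downward, where 3.58% of all genes passed. Among them were Neurod1 (2.52) and Neurog3 (1.76) of enteroendocrine cells, Pou2f3 (2.43) of tuft cells, and Spdef (1.50) of goblet and Paneth cells. Those factors were also counted in the marker lists above, so the counts of the lists overlap. Insm1 (1.38), Foxa3 (1.24) and Bhlha15 (0.98) were the remaining factors beside Atoh1, and the calls of Foxa3 and Bhlha15 were lost without Lgr5-medium Ki67-low replicate 1 (limma adjusted p = 0.0569 and 0.0503). In the Lgr5 comparison at low Ki67, 7 of the 11 were lower in Lgr5-high cells (median -1.40, 2.84% of all genes), namely Atoh1, Spdef, Neurog3, Neurod1, Insm1, Pou2f3 and Bhlha15, and these 7 also passed in the interaction (1.04% of all genes). At low Ki67 the call of Bhlha15 was lost without either Lgr5-high Ki67-low array (adjusted p = 0.0604 and 0.0618) and that of Neurog3 without replicate 2 of them (0.0673). The interaction call of Neurod1 held in all 17 alternatives, and the others were lost in 2 (Pou2f3), 5 (Spdef), 6 (Atoh1), 7 (Insm1), 8 (Neurog3) and 10 (Bhlha15) of the 17. Without Lgr5-high Ki67-high replicate 1 or Lgr5-high Ki67-low replicate 1 all 6 of these calls were lost (limma adjusted p from 0.0601 to 0.193). Of the other arrays, Lgr5-high Ki67-high replicate 2 took 5 calls when left out, Lgr5-high Ki67-low replicate 2 took 4, replicates 1 and 2 of Lgr5-medium Ki67-high cells took 2 each, and replicate 3 of that group and either Lgr5-medium Ki67-low array took 1 each. None passed between the Ki67 fractions of Lgr5-high cells (median -0.15), where the smallest p belonged to Neurod1 (-0.45), Bhlha15 (-0.43) and Sox4 (0.32). Nor did any pass between the Lgr5 levels at high Ki67 (median 0.22), where Sox4 (0.85, limma adjusted p = 0.0541), Foxa3 (0.66) and Foxa2 (0.32) came closest. The mean level of the list was 7.40 and 6.90 in the Lgr5-medium Ki67-low replicates 1 and 2, the same order as for Dll1 and Dll4. Of the 8 factors that passed upward at medium Lgr5, Pou2f3 (7.37 and 7.69) and Insm1 (6.02 and 6.07) had the other order.

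The genes with the most similar course to a member were taken as those with the smallest mean absolute difference over the 10 arrays, after each gene was centred on its own mean, for the 4 members with the largest SD. For Dll4 they were Rab15 (0.068), Slc17a9 (0.089) and Slc36a4 (0.095), and for Dll1 Prune2 (0.086), Slc17a9 (0.087) and Wars (0.090). Slc17a9 stood in both lists, at 5.51 and 4.68 in the Lgr5-medium Ki67-low replicates and a mean of 4.11 to 4.15 in the other groups. For Notch1 they were Kcnq1 (0.078), Apcdd1 (0.080) and Pik3ip1 (0.082), and Kcnq1 went from a mean of 10.43 in Lgr5-high Ki67-low cells to 9.58 in Lgr5-medium Ki67-high cells. For Hes1 they were Tns4 (0.075), Gab1 (0.083) and Bcl11a (0.097). The points compared are the same 10 arrays in each case, and the likeness is a description.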

How the data were processed

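Gene expression was measured on 10 arrays, 1 per sorted sample. The authors deposited 1 value per probe set and array, read here as log2 values from their range of about 1.16 to 13.76; their processing notes name MAS5 and GCOS without version or role. Log base, background correction, normalization and the summary of probes: not given in the sources used here. No further normalization was applied. Of 35556 probe sets, 21218 have 1 symbol in the platform's gene table, 1881 several and 12457 are unnamed here; taking the probe set with the highest mean left 18820 genes.

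limma 3.58.1 (R 4.3.3) was fitted with 1 mean per group to all 10 arrays (6 residual degrees of freedom), followed by eBayes. Within a comparison, Benjamini-Hochberg adjustment ran over all 18820 genes, and an adjusted p under 0.05 counted as a call whatever the fold. The number of arrays limits the precision: the median standard error was 0.11 to 0.13 between groups and 0.17 for the interaction. The script was tested on simulated data. Alternatives were a fit of only the groups compared, the replicate number as a block, centred or quantile-normalized arrays, the mean of probe sets, every row of the table, leaving out the dimmest 30% of genes, array weights, and leaving out each array in turn.

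The genes, lists and tests were chosen with earlier results of these data known. The text names the 9 genes and Atoh1, and of the pathway and secretory lists those past the threshold (at most 8 per comparison) or, where none passed, those with the smallest p. Hes and Hey genes, Dll3, other receptor and ligand genes, fringe genes and single cell type markers outside that rule were named after their values were seen. Promoters came from RefSeq (GRCm38.p6).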

Additional observations from a re-analysis of the deposited data

Results flagged for a closer look

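Olfm4 on Lgr5-medium Ki67-high replicate 3 read 11.90, apart from the other 3 arrays of its group, which lay between 12.14 and 12.16. The gap of that array to the nearest other was 0.92 of the range of the group, above the limit of Dixon's test for a single distant value. Such a test marks about 1 group in 20 by chance, and it was run on 9 genes in the 1 group with 4 arrays. Without that array the Olfm4 difference between Lgr5-high and Lgr5-medium cells at high Ki67 was 0.36 rather than 0.43 (limma adjusted p = 0.107 rather than 0.0716).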

How the results depend on the processing

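Over the 45 differences of the 9 genes and 810 alternative values, 728 kept their direction and side of the threshold, 40 lost and 22 gained a call, and 20 changed sign; none of the 4 called differences changed sign. With only the compared groups fitted, genes past the threshold numbered 0 for Ki67 at high Lgr5 (1 as reported), 373 for Ki67 at medium Lgr5 (674), 107 for Lgr5 at high Ki67 (176) and 274 for Lgr5 at low Ki67 (534), with 0 of the 9 members at medium Lgr5 and 0 at low Ki67. With every row of the table the counts were 0 for Ki67 at high Lgr5, 8 and 318 for Lgr5 at high and low Ki67, and 124 for the interaction (196), again with 0 members for Ki67 at medium Lgr5 and for Lgr5 at low Ki67. Array weights gave 1135, 803 and 299 genes in the last 3 comparisons, and 3 and 2 members for Lgr5 at high and low Ki67. Centring gave 1184 genes for Ki67 at medium Lgr5, and a sign change for Dll1 (-0.044, Lgr5 at high Ki67) and for Olfm4 (0.016, interaction). Quantile normalization and leaving out the dimmest 30% each gave 2 members for Lgr5 at high Ki67.

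Leaving out single arrays moved the counts of genes to 0 to 4, 264 to 779, 0 to 327, 198 to 921 and 79 to 292 in the order Ki67 at high and medium Lgr5, Lgr5 at high and low Ki67, and interaction. The counts of members moved to 0 to 3 for Ki67 at medium Lgr5, 0 to 1 and 0 to 2 for Lgr5 at high and low Ki67, and 0 to 2 for the interaction, where Dll4 passed without Lgr5-medium Ki67-low replicate 2 (-1.70, limma adjusted p = 0.00195). The ranges that spanned 0 were Notch2 -0.033 to 0.32, Lfng -0.071 to 0.16 and Rbpj -0.13 to 0.095 for Ki67 at high Lgr5; Notch2 -0.25 to 0.0054, Hes1 -0.33 to 0.11 and Rbpj -0.19 to 0.12 for Ki67 at medium Lgr5; Dll1 -0.062 to 0.099 for Lgr5 at high Ki67; Lfng -0.015 to 0.21 for Lgr5 at low Ki67; and Notch1 -0.12 to 0.25 and Rbpj -0.14 to 0.17 for the interaction.

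Same-numbered arrays did not deviate together from their group means (correlations from -0.30 to 0.013). In a group of 2 arrays these deviations mirror each other, so this check cannot show whether the samples were paired. The replicate block gave 0, 352, 6 and 128 genes for Ki67 at high and medium Lgr5, Lgr5 at high Ki67 and the interaction, and 0 members for Ki67 at medium Lgr5. A crossed replicate block for Lgr5 at low Ki67, fitted to the Ki67-low groups alone, gave 1238 genes and 3 members. It was added after seeing the data because the correlation of these groups was -0.30. Crossing the numbers reverses the sign of that correlation, so a block chosen in this way takes up spread by construction. Its counts are therefore no evidence of pairing. For these changes the cause was not tested. Precision is limited by the 2 arrays in 3 of the groups, and signal over background was not used here.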
